A study of Mus musculus with 3 samples.

Results

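The 9 genes described here encode transcription factors that direct T cells into helper and cytotoxic lineages: Tbx21 (T-bet), Eomes, Gata3, Rora, Bcl6, Maf, Runx3, Zbtb7b (ThPOK) and Ahr. They are named by a fixed list of gene symbols that sets no limit on measured levels, although the list was drawn up with earlier results of these data known, and each had 1 gene entry among the 55536 genes of the annotation. RNA with poly-A tails was sequenced from regulatory T cells (Tregs) that had been through inflammation, taken as primary cells from male adult mice aged 6 months of the strain Foxp3CreERT2 x Rosa26YFP. In this strain the promoter of Foxp3, the defining Treg factor, drives a Cre recombinase that works only when a drug activates its hormone-receptor part, and the recombined Rosa26 locus then makes a yellow fluorescent protein, so that cells which expressed Foxp3 at the time of the drug stay marked. All 3 libraries belong to this single group and are technical replicates of 1 biological replicate, so that every spread below is between libraries and says nothing of the spread between animals. The sort, the tissue, the kind of inflammation, the drug dosing and the number of mice were not given in the sources used here.

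Helper lineages are set by a small number of master regulators. T-bet drives the Th1 programme of interferon-gamma secretion, GATA3 drives Th2, RORα takes part in Th17, and BCL6 drives follicular helper (Tfh) cells, while ThPOK and RUNX3 oppose each other in the choice between the CD4 and CD8 lineages. Tregs are known to take up parts of these programmes without losing Foxp3, and GATA3, c-MAF and RORα are known from Tregs of barrier tissues. AHR is a receptor for small ligands from diet, microbes and pollutants, and EOMES is a T-box relative of T-bet best known from CD8 T cells and natural killer cells.

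For 7 of the 9 genes a promoter sequence was matched by symbol in RefSeq (GRCm38.p6, the assembly also called mm10), in 10 windows that each run from 250 bases before to 50 bases after a start. The windows of Runx3 and Bcl6 are printed because each gene has 2 windows, of which 1 lies at the start that nearly all of its transcripts were assigned to, and because the letters of its own factor were found in 1 of the 2. Capitals mark the letters that the gene's own factor is known to bind: TGTGGT on either strand for RUNX, and TTCCNNGAA on either strand for BCL6. Sequences read 5′ to 3′ on the strand of the gene. The first is the distal start of Runx3 (plus strand, chr4:135120395-135120694), the second its proximal start (plus strand, chr4:135152295-135152594). The third is the upstream Bcl6 window (minus strand, chr16:23988803-23989102) and the fourth the downstream Bcl6 window (minus strand, chr16:23981234-23981533).
Runx3 distal: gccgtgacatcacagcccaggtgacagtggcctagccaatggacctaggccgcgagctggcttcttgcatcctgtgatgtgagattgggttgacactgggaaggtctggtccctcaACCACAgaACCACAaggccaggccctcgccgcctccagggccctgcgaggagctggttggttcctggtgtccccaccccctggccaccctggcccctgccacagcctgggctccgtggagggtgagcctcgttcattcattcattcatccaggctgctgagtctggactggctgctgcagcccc
Runx3 proximal: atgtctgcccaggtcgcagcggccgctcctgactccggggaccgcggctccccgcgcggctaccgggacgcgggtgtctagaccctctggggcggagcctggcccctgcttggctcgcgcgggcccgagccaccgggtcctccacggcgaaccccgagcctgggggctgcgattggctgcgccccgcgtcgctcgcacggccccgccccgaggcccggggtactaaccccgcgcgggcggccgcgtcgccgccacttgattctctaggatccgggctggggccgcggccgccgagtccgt
Bcl6 upstream: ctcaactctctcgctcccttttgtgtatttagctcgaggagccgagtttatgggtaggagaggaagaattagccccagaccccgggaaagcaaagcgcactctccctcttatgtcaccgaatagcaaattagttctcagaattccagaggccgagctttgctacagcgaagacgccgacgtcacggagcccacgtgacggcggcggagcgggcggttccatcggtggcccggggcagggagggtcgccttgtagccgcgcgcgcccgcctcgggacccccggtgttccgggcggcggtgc
Bcl6 downstream: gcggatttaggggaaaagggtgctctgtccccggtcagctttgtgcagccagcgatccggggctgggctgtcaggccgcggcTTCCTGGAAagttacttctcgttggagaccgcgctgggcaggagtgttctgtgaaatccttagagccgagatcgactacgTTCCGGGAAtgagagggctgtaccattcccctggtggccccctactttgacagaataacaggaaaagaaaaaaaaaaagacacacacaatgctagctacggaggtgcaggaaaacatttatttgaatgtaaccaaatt

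The distal Runx3 window held 2 RUNX matches, beginning at positions -134 and -126 from the start, and the proximal window held none; 16.8% of 32851 RefSeq promoter windows of the same length hold such a match. The transcript from the distal start, Runx3-201, carried 100%, 93.55% and 100% of Runx3 TPM (transcripts-per-million, a level per transcript length) in libraries 1, 2 and 3, and the transcript from the proximal start, Runx3-202, was assigned 0 counts in each. The distal window had a GC content of 63.7% and the proximal window one of 77.3%, above 97.8% of all windows. For Bcl6, the upstream window lies at the start of Bcl6-201, which carried 95.9%, 96.75% and 96.68% of the TPM of the gene, and it held no BCL6 match. The downstream window held 2 BCL6 matches, at positions -168 and -88, where 4.81% of all windows hold one; no annotated transcript starts within 100 bases of it, so its use was not measured. A match of letters is a description of the window and not evidence that a factor was bound. The promoter windows of Tbx21 and Eomes held no T-box letters (AGGTGT, either strand, in 13.7% of all windows), and that of Gata3 held no GATA letters (AGATAA, either strand, in 11.2%). The Eomes window lies within 100 bases of the start of Eomes-202 only, which carried 21.62%, 4.23% and 9.88% of Eomes TPM. The Rora window, at the start of Rora-201 (17.94%, 17.27% and 18.22% of Rora TPM), held no ROR letters (AGGTCA, either strand, in 16.3%).

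The libraries held 11829501, 14136139 and 10667765 estimated counts in genes, and 12470 of 55536 genes (22.5%) reached 1 TPM in all 3. All 8 Treg markers and all 8 T cell and CD4 markers reached 1 TPM in every library, and the summed TPM of the Treg list was 2687, 2314 and 2626. Markers of other cells were present and unequal: the summed TPM in libraries 1, 2 and 3 was 65.7, 332 and 138 for 5 CD8 T cell markers, 43.8, 72.2 and 40.8 for 8 natural killer cell markers, and 3.37, 45.7 and 17.1 for 8 myeloid markers. For B cells it was 461, 707 and 891 over 8 markers, for plasma cells 40.5, 58.3 and 58.0 over 5, and for red cells 4.83, 51.2 and 286 over 5. Gamma-delta T cell markers summed to 1.53, 1.76 and 2.99 TPM over 4 genes. The innate lymphoid list, 9 genes of which Gata3 and Rora are 2, summed to 352, 301 and 354. The numbers of these lists at 1 TPM in all libraries were 4 of 5 (CD8), 4 of 8 (natural killer), 7 of 9 (innate lymphoid), 1 of 4 (gamma-delta), 4 of 8 (B), 1 of 5 (plasma), 1 of 8 (myeloid) and 3 of 5 (red cells); no marker was at 0 in all libraries. In such bulk RNA, fewer cells of a type and less RNA per cell cannot be told apart, and the part of these other cells in the values below was not tested unless a value is given.

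The 9 factors fell into a high tier and a low tier. Gata3, Maf and Rora were each at 78.08 TPM or more in every library, with means above those of 92.3%, 90.5% and 87.0% of the genes at 1 TPM or more, while the other 6 stayed at or below 21.1 TPM. Gata3 was at 151.03, 117.49 and 138.88 TPM in libraries 1, 2 and 3 (135.8 ± 17.0, SD, n = 3), rank 1094 of all genes. Maf followed with 113.58, 100.55 and 120.24 TPM (111 ± 10.02), and Rora with 88.83, 78.08 and 79.17 TPM (82.0 ± 5.92). These TPM levels were above that of Foxp3 itself, which was at 17.96, 14.25 and 16.01 TPM. Maf exceeded it by 2.79 ± 0.12 and Rora by 2.35 ± 0.08 on the log2(TPM + 0.1) scale, with each difference positive in 3 of 3 libraries. For Maf this depended on the deposited values used. In the whole-number counts, which are not divided by length, Maf had 130, 138 and 108 and Foxp3 had 178, 186 and 150.

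The low tier began with Runx3 at 14.55, 21.10 and 16.71 TPM (17.5 ± 3.34), followed by Tbx21 at 15.44, 16.62 and 8.10 TPM (13.4 ± 4.62). Zbtb7b, at 15.45, 12.87 and 11.71 TPM (13.3 ± 1.91), had almost the same mean as Tbx21. The ranges of these 3 genes overlapped, with library 3 of Tbx21 standing below the others. Bcl6 was at 9.49, 6.66 and 13.05 TPM (9.73 ± 3.20) and Ahr at 6.71, 4.98 and 8.94 TPM (6.88 ± 1.99). Eomes came last with 0.24, 8.63 and 2.72 TPM (3.86 ± 4.31), and was the only factor under 1 TPM in any library, so that 8 of 9 reached that level throughout.

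**Figure D1:**
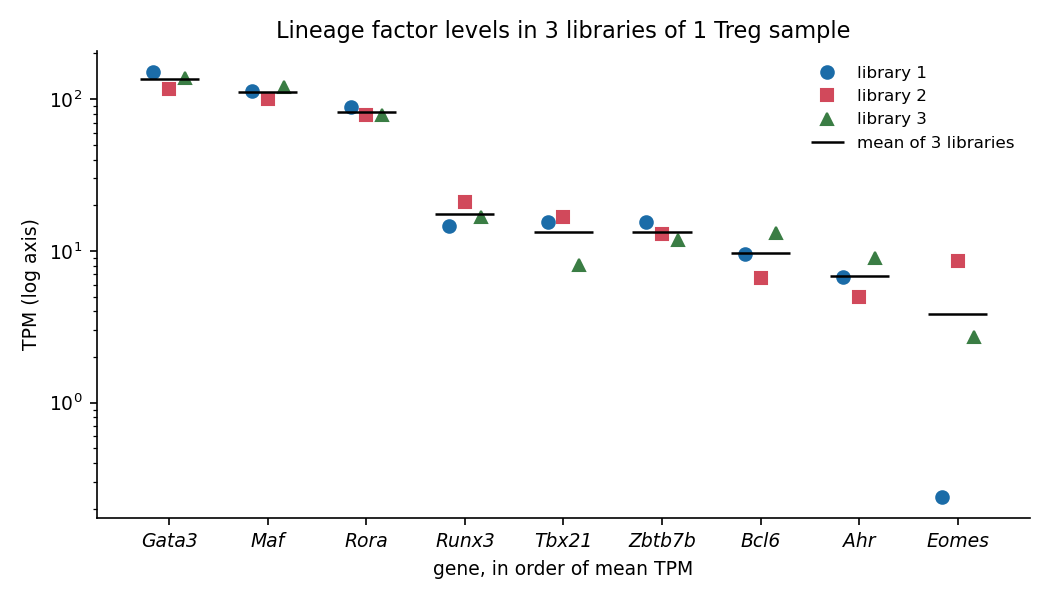
Level of each factor in TPM (log axis) in library 1 (circle), library 2 (square) and library 3 (triangle), with a bar at the mean of 3 libraries. Gata3, Maf and Rora lie at or above 78.08 TPM in each library, and Eomes spans 0.24 to 8.63 TPM.

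Neighbours in this order were compared within each library. The test was an exact permutation of the signs of the 3 differences, two-sided, which cannot give a p below 0.25. The gap between tiers was the widest that held in all 3 libraries: Rora exceeded Runx3 by 2.24 ± 0.36 on the log2(TPM + 0.1) scale (SD, exact p = 0.25, 3 of 3 libraries). Gata3 exceeded Maf by 0.28 ± 0.11 and Maf exceeded Rora by 0.44 ± 0.14, each in 3 of 3 libraries with exact p = 0.25. The ranges of Gata3 and Maf overlapped and those of Maf and Rora did not. On counts not divided by length Gata3 lay below Maf, with a log2 difference of -0.39. Below Runx3 the order was loose. Runx3 minus Tbx21 was 0.43 ± 0.57 (exact p = 0.5), Tbx21 minus Zbtb7b -0.05 ± 0.45 (exact p = 0.75), Zbtb7b minus Bcl6 0.49 ± 0.58 (exact p = 0.5) and Ahr minus Eomes 1.74 ± 2.55 (exact p = 0.5), and none of these 4 had 1 sign in all libraries. The exception was Bcl6 minus Ahr, at 0.48 ± 0.07 and positive in 3 of 3 libraries (exact p = 0.25), although both genes moved between libraries. Adjusted over the 8 pairs, the p-values were 0.5 to 0.75.

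The only contrast the labels allow is between libraries. Counts of each gene were tested against equal shares of the library sizes with a Poisson chi-square test, adjusted by Benjamini and Hochberg's method over 13970 genes. Of these, 6388 genes passed, or 45.7%, and where the mean count was at least 100 the share was 52.6%. Genes that passed were highest in library 1 in 14.0% of all genes tested, in library 2 in 15.5% and in library 3 in 16.2%. Of the 9 factors 8 passed, all with mean counts over 100, the exception being Zbtb7b. Genes that passed with over 2-fold between the highest and the lowest library made up 9.93% of those tested, and 2 of the 9 factors were among them, Eomes and Tbx21. The factors did not share a direction: Gata3 and Rora were highest in library 1, Runx3, Tbx21 and Eomes in library 2, and Maf, Bcl6 and Ahr in library 3. These highest libraries were the same under 2 other scalings, DESeq2 size factors and total counts, while in the deposited whole-number counts Maf was highest in library 1 and Zbtb7b in library 2, neither passing the test there.

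**Figure D2:**
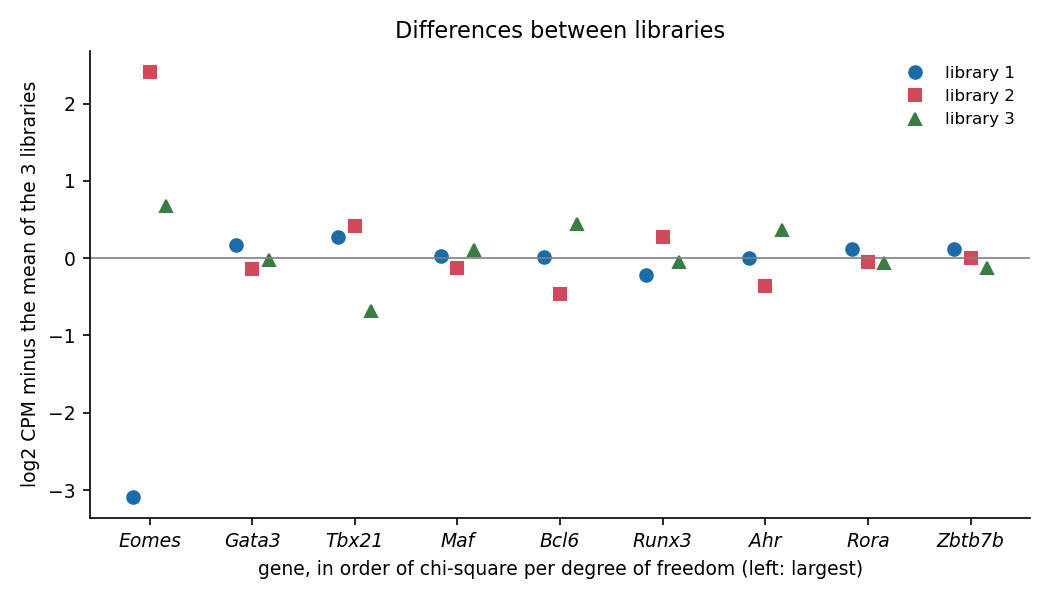
Difference of each factor between libraries, as log2 CPM minus the mean of the 3 libraries, with genes ordered by chi-square per degree of freedom. Eomes spans 45.0-fold and Tbx21 2.15-fold, and the other 7 genes stay under 2-fold.

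By fold, the T-box factors differed most, while by chi-square per degree of freedom Gata3 (50.6) lay above Tbx21 (37.9) and below Eomes (158). Eomes had 6, 317 and 76 estimated counts in libraries 1, 2 and 3, a 45.0-fold difference per library size between libraries 2 and 1 (95% exact counting interval 20.5 to 124, adjusted p = 2.47e-67). The size of the fold rested on the low value of library 1. Without library 1 it was 3.30 (library 2 over 3, adjusted p = 2.27e-21), without library 2 it was 13.6 (library 3 over 1, adjusted p = 2.92e-14), and on the whole-number counts it was 85.2, from 1, 98 and 26 counts. Eomes was near the detection limit in library 1, where 3 counts correspond to 0.255 CPM (counts-per-million). Tbx21 had 341, 443 and 164 counts and was 2.15-fold higher in library 2 than in library 3 (interval 1.79 to 2.59, adjusted p = 7.68e-16). Without library 3 the Tbx21 difference was 1.11-fold with an adjusted p of 0.338, so the difference rested on library 3. The ratio of the T-box genes therefore changed from library to library: Eomes minus Tbx21 was -5.51, -0.94 and -1.54 on the log2(TPM + 0.1) scale. An antisense gene at the Eomes locus, Gm33460, had 2, 31 and 8 counts, in the same order as Eomes, and the strand setting of the counting was not given.

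On the estimated counts, the genes that T-bet and EOMES are known for were mostly highest in library 2. Their lists were also written with earlier results of these data known. Of 17 Th1 genes, 16 were tested and all 16 passed, 13 with library 2 highest. Of all genes tested 45.7% passed, 15.5% with library 2 highest, and of those with a mean count of at least 100 the share was 52.6%. The median level of the Th1 list was 118 TPM. The chemokine Ccl5 was at 1426, 5085 and 2327 TPM and Nkg7 (a granule protein) at 1142, 2006 and 819. In the deposited whole-number counts, whose totals were 2988262, 3386154 and 2734873, neither gene peaked in library 2 per library size. Ccl5 had 613, 655 and 638 counts there and Nkg7 had 1091, 1118 and 1030. The estimated counts of Ccl5 were 6245, 26866 and 9346. Some other abundant genes also kept few of their counts there. Trbc2, a T cell receptor gene, had 584, 604 and 596 beside 21187, 25528 and 19620 estimated counts. Whether the whole-number counts can show a difference of this size in such genes was not tested. Ifng, the Th1 cytokine itself, was at 28.6, 57.05 and 38.53 TPM, 2.22-fold higher in library 2 than in library 1 (interval 1.93 to 2.56, adjusted p = 2.32e-31). The interleukin-12 receptor chain Il12rb2, at 8.92, 18.54 and 5.22 TPM, was 3.60-fold higher in library 2 than in library 3. Fasl, a death ligand, was 2.08-fold higher in library 2 than in library 1. The interferon-gamma receptor chain Ifngr2 went the other way, at 2.77, 2.73 and 6.99 TPM. Its counts of 66, 78 and 92 differed less, 1.49-fold per library size between libraries 3 and 1 (interval 1.08 to 2.08, adjusted p = 0.0279).

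Of 13 cytotoxic genes 12 passed, 7 with library 2 highest, where 45.7% of all genes tested passed and 15.5% did so with library 2 highest. Gzmk, a granzyme of memory CD8 T cells, was at 5.66, 202.4 and 53.66 TPM, the same order and nearly the same size of difference as Eomes (38.6-fold, interval 28.9 to 52.7). Perforin (Prf1) was at 7.49, 25.16 and 6.73 TPM, the adhesion molecule Crtam at 4.30, 16.91 and 5.81, and the chemokine Xcl1 at 49.81, 100.15 and 63.23. These 3 were lowest in library 1 or 3 and highest in library 2. Gzmb, at 307, 236 and 200 TPM, and Il2rb, the shared interleukin-2 and interleukin-15 receptor chain, at 572, 536 and 462 TPM, were highest in library 1 instead. Ctsw, a cathepsin of cytotoxic cells, was at 111, 134 and 111 TPM. The CD8 co-receptor gene Cd8a had 2, 23 and 48 counts and so was highest in library 3, not in library 2 where Eomes and Gzmk peaked. The CD8 T cell sum given above is made of Cd8a, Cd8b1, Gzmk, Crtam and Xcl1, all 5 also in the cytotoxic list, and Gzmk and Xcl1 made up most of its peak in library 2. The co-receptor genes were highest in TPM in library 3, Cd8b1 at 5.76, 11.45 and 12.36. Of the 8 natural killer cell markers, Gzma (31.31, 32.02 and 25.28 TPM) and Prf1, also cytotoxic list genes, were the highest. The receptor genes of that list were lower, with 6, 4 and 2 counts for Ncr1, 9, 5 and 28 for Klrb1c, 0, 0 and 4 for Klra8, 2, 1 and 0 for Klra4 and 28, 39 and 30 for Klrk1, and the adaptor Tyrobp had 7, 67 and 17. The part of CD8 T cells and natural killer cells in the Eomes difference was not tested.

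By the distance between profiles over the 3 libraries, centred on each gene's mean log2(TPM + 0.1) and taken over 83 genes of the lists, Gzmk was the nearest to Eomes (distance 0.32) and Ccl5 the second (2.15). Cell type markers outside these lists were not among the 83 genes. Among such markers, the myeloid gene Lyz2 was at 1.45, 31.86 and 11.70 TPM, in the same order of libraries as Eomes. It was 22.1-fold higher in library 2 than in library 1. The part of myeloid cells in the Eomes difference was not tested. For Tbx21 the nearest were Zeb2, a repressor known to act downstream of T-bet (0.30), and Cxcr3, a chemokine receptor and T-bet target (0.46). Zeb2 was at 3.71, 5.29 and 2.41 TPM and Cxcr3 at 333, 333 and 250 TPM, both lowest in library 3 as Tbx21 was. With 3 libraries, such nearness describes these libraries only.

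Runx3, the partner of T-bet in Th1 cells and the CD8 lineage factor, had 505, 832 and 532 counts and was 1.40-fold higher in library 2 than in library 1 (interval 1.26 to 1.57, adjusted p = 2.66e-08). The difference rested on library 2: without it the fold was 1.13 with an adjusted p of 0.130. The nearest profiles were those of Txk, a T cell kinase (30.04, 41.03 and 32.07 TPM, distance 0.08), and the chemokine Ccl4 (95.09, 146.65 and 121.24 TPM, distance 0.11). Of its family, Runx1 was at 26.95, 22.24 and 34.65 TPM and did not pass the test (adjusted p = 0.0714), and their shared subunit Cbfb passed at 40.18, 42.82 and 39.55 TPM. Runx3 lay below Runx1 in 3 of 3 libraries, by a log2 difference of -0.67 ± 0.52.

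Zbtb7b, the CD4 lineage factor, had 414, 445 and 326 counts and was the factor that did not pass (1.19-fold, interval 1.02 to 1.38, adjusted p = 0.122). Runx3 minus Zbtb7b was -0.09, 0.71 and 0.51 on the log2(TPM + 0.1) scale, so the pair that opposes each other in lineage choice was present at similar levels in these bulk libraries. Its transcripts, however, were assigned differently in library 3. Zbtb7b-203 carried 80.52%, 86.61% and 0.02% of the TPM of the gene in libraries 1, 2 and 3, and Zbtb7b-202, which starts further upstream, carried 0.01%, 0% and 92.58%. Both code for protein and end at the same base, so the libraries differed in the start to which the model gave the counts. The transcript Zbtb7b-205 held 19.47%, 11.35% and 2.02%. An antisense gene that overlaps an exon of Zbtb7b, Gm15417, had 29, 35 and 18 counts.

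Gata3, the Th2 master factor, also kept by many Tregs, had 4289, 4046 and 3506 counts and was 1.24-fold higher in library 1 than in library 2 (interval 1.19 to 1.30, adjusted p = 3.33e-21). Its profile was nearest to that of Foxp3 (distance 0.05), which was also highest in library 1 and lowest in library 2 without passing the test (adjusted p = 0.117). The second nearest was Il12rb1, an interleukin-12 receptor chain (distance 0.12). Gata3-201 made up 98.0 ± 2.08% of the TPM of the gene, and the coding transcript from the upstream start, Gata3-202, was assigned 0 counts in each library. Gata3 exceeded Tbx21 by 3.39 ± 0.64 on the log2 scale, in 3 of 3 libraries.

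Of the Th2 cytokine genes, Il4 was detected in every library and Il5, Il13 and Il9 were at or near 0. Of 15 Th2 genes 10 reached 1 TPM in all libraries, with a median level of 4.64 TPM, and 7 of 11 tested passed (4 with library 3 highest, 2 with library 1, 1 with library 2), a share of 63.6% beside 45.7% of all genes tested and 52.6% of those with a mean count of at least 100. Il5 had 0, 0 and 1 counts, Il13 had 1, 2 and 1, and Il9 had 0 in each library, where a count of 0 allows up to 0.255, 0.217 and 0.273 CPM. Il4 had 30, 15 and 65 counts (6.19, 2.49 and 14.36 TPM) and was 5.44-fold higher in library 3 than in library 2 (interval 3.07 to 10.3, adjusted p = 3.70e-10). The highest Th2 genes were the signal transducer Stat6 at 127, 118 and 125 TPM, the chemokine receptor Ccr8 at 79.75, 69.17 and 80.55 and the interleukin-4 receptor Il4ra at 33.20, 30.15 and 34.86; of these Il4ra passed the test. The growth factor Areg, known as a Treg tissue-repair product, was at 3.69, 2.90 and 7.33 TPM, 2.41-fold higher in library 3 than in library 2. Il10, an anti-inflammatory cytokine, was 2.02-fold higher in library 2 than in library 1.

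Rora, the Th17-related nuclear receptor, had 3226, 3390 and 2663 counts, highest in library 1 by 1.13-fold (interval 1.07 to 1.19, adjusted p = 4.60e-06). The difference rested on library 1: without it the fold was 1.01 with an adjusted p of 0.886. Rora-202, from an internal start, carried 81.9 ± 0.80% of the TPM, but its counts of 1659, 1794 and 1366 were close to those of Rora-201 (1562, 1596 and 1297), whose transcript is longer. The nearest profiles were those of Il6st, the shared interleukin-6 receptor chain (distance 0.05), and Nqo1, a redox enzyme (0.06).

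Of 16 Th17 genes, 14 reached 1 TPM in all libraries and 11 of 14 tested passed, 6 with library 3 highest. Of all genes tested 45.7% passed, 16.2% with library 3 highest, and of those with a mean count of at least 100 the share was 52.6%. The transcription factors Batf (216, 235 and 227 TPM) and Stat3 (61.12, 63.11 and 60.98 TPM) and the receptor Il21r (60.56, 54.64 and 50.72 TPM) were the most abundant. The cytokine genes were scarce: Il17a had 9, 1 and 0 counts and Il17f 6, 6 and 11. Il22 was at 2.43, 5.49 and 3.47 TPM, 2.37-fold higher in library 2 than in library 1, and Il21 at 1.61, 2.98 and 5.72 TPM. Tmem176a (19.92, 22.60 and 47.60 TPM) and Tmem176b (19.09, 22.35 and 49.10 TPM), which encode related membrane proteins, were 2.19-fold and 2.26-fold higher in library 3 than in library 1. The interleukin-23 receptor Il23r was 2.33-fold higher in library 3 than in library 2.

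Maf, which promotes interleukin-10 and Tfh genes, had the most counts of the 9 (5091, 5403 and 5022) and was 1.17-fold higher in library 3 than in library 2 (interval 1.12 to 1.21, adjusted p = 1.52e-13). Its coding transcripts shared the level, Maf-202 with 57.1 ± 1.85% and Maf-201 with 42.9 ± 1.85% of TPM. The nearest profiles were those of Il4ra (distance 0.04) and of Mafk, a small MAF protein (0.05). In the deposited whole-number counts Maf had 130, 138 and 108, or 2.42% of its estimated counts where all genes together had 25.0%, and it did not pass there (adjusted p = 0.785).

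Bcl6, the Tfh master factor, had 300, 254 and 378 counts and was 1.87-fold higher in library 3 than in library 2 (interval 1.59 to 2.20, adjusted p = 7.94e-13). It lay below Prdm1, which encodes its antagonist BLIMP1 (25.65, 22.02 and 18.44 TPM), in 3 of 3 libraries, by a log2 difference of -1.21 ± 0.64. Prdm1 passed with library 3 lowest, so that the gap was smallest there, at -0.50. The nearest profiles were those of Pou2af1, a transcriptional coactivator (3.76, 2.74 and 5.24 TPM, distance 0.05), and Ahr (0.09).

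Tfh genes were mostly highest in the library where Bcl6 was highest. Of 15 Tfh genes all were tested and 14 passed, 10 with library 3 highest. Most of these differences were small. Only 1 that passed, Ascl2, differed by over 2-fold per library size, where 9.93% of all genes tested passed with over 2-fold. Icos differed by 1.34-fold and Izumo1r by 1.39-fold. Of all genes tested 45.7% passed, 16.2% with library 3 highest, and of those with a mean count of at least 100 the share was 52.6%. The median level of the Tfh list was 48.0 TPM. The most abundant were the co-stimulator Icos at 376, 285 and 392 TPM, the adaptor Sh2d1a at 264, 323 and 293 and the folate receptor family member Izumo1r at 277, 234 and 340. Ascl2, a factor that induces Cxcr5, had 6, 2 and 26 counts, a 16.3-fold difference with a wide interval of 4.09 to 142. Cxcr5, the receptor that guides cells to follicles, was instead highest in library 2 with 23.53, 49.66 and 34.53 TPM. B cells can also express Bcl6 and Pou2af1. The summed TPM of B cell markers was highest in library 3 as well (461, 707 and 891), but lowest in library 1, where Bcl6 was lowest in library 2. The part of B cells in the Bcl6 difference was not tested.

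Ahr had 283, 258 and 342 counts and was 1.67-fold higher in library 3 than in library 2 (interval 1.41 to 1.96, adjusted p = 3.37e-08), the same order of libraries as Bcl6. The nearest profiles were those of Pou2af1 (distance 0.06) and Arnt2, a relative of its partner ARNT (7.88, 5.73 and 9.75 TPM, distance 0.08). The partner Arnt was at 24.71, 26.29 and 24.79 TPM and did not pass (adjusted p = 0.634); Ahr lay below it by a log2 difference of -1.90 ± 0.46. The coding transcript Ahr-202 carried 82.6 ± 1.51% of the TPM and a retained-intron transcript, Ahr-203, carried 17.4 ± 1.51%, the latter resting on 8.25, 6.60 and 10.71 counts. Gm48236, a non-coding gene on the opposite strand that overlaps an exon of Ahr, had 35, 27 and 45 counts, again in the order of Ahr.

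Several AHR targets had few counts. Cyp1a1, the enzyme gene most used as a readout of AHR activity, had 5, 1 and 5 counts, Cyp1b1 had 1, 0 and 2, Cyp1a2 had 0 in each library, and the repressor Ahrr had 2, 4 and 8. Other targets were measured at higher counts: Nqo1, a redox enzyme, had 65, 69 and 56 (4.77, 4.20 and 4.49 TPM) and Tiparp had 142, 205 and 211. Of 11 AHR-linked genes 7 reached 1 TPM in all libraries and 6 of 7 tested passed, 3 with library 3 highest, beside 45.7% and 16.2% of all genes tested. The most abundant were Lpxn, an adhesion adaptor, at 198, 208 and 223 TPM, the integrin Itgae at 52.54, 24.44 and 53.32 TPM and the ectonucleotidase Entpd1 at 40.08, 49.22 and 33.69 TPM. Itgae was 2.09-fold higher in library 1 than in library 2 (interval 1.93 to 2.26), and Entpd1 was highest in library 2. Tiparp, a direct target, was at 5.59, 7.20 and 9.81 TPM and the gut-homing receptor Gpr15 at 29.13, 22.68 and 42.65 TPM, both highest in library 3.

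**Figure D3:**
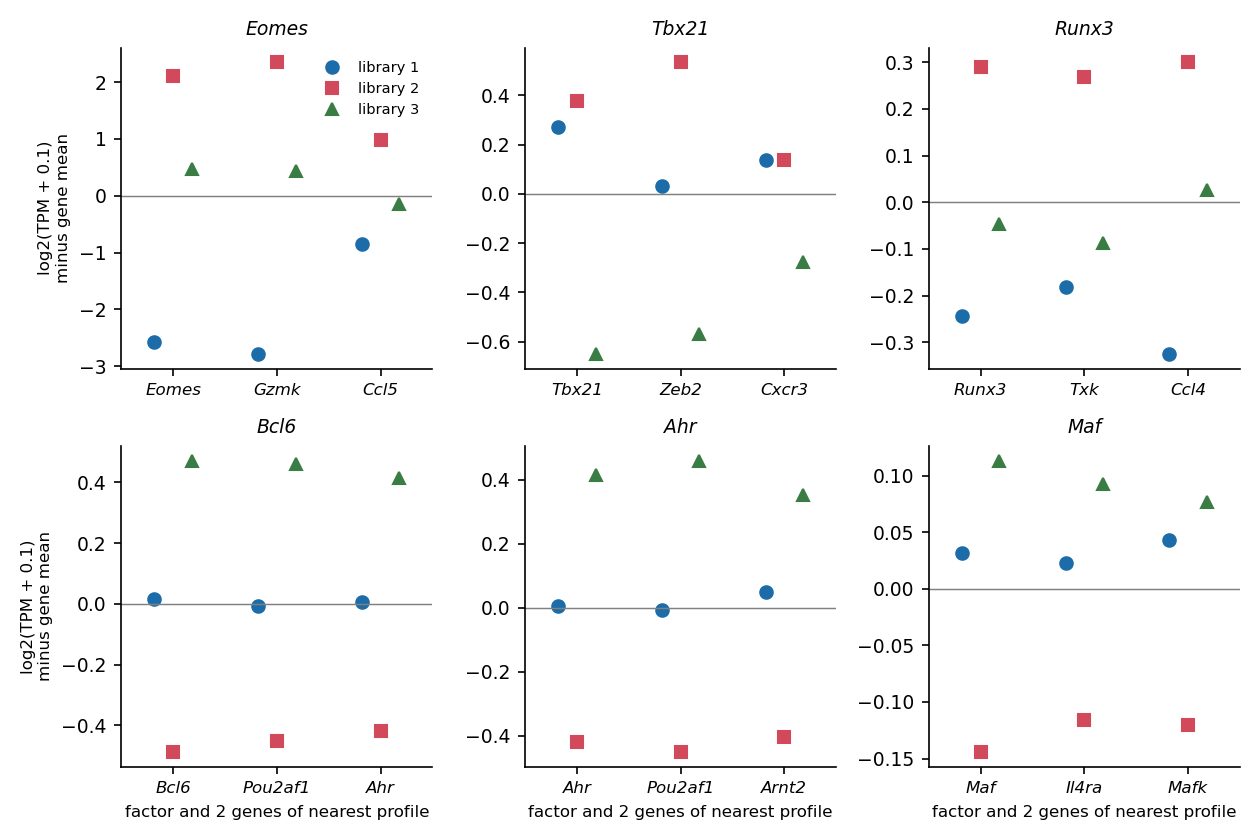
Each of 6 factors beside the 2 list genes with the nearest profile, as log2(TPM + 0.1) minus the gene mean in libraries 1 (circle), 2 (square) and 3 (triangle). Library 2 is highest in the Eomes and Runx3 panels, and library 3 is highest and library 2 lowest in the Bcl6, Ahr and Maf panels.

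Over the 6 lists, 68 of 83 distinct genes reached 1 TPM in all libraries, and 62 of 72 tested passed (86.1%, where 45.7% of all genes and 52.6% of those with a mean count of at least 100 did). Of the 62, 27 were highest in library 2, 27 in library 3 and 8 in library 1. Of 20 partner genes, among them Foxp3, Prdm1 and Zeb2, 14 reached 1 TPM in all libraries and 9 of 16 tested passed. The counts for Th1 with library 2 highest (13) and Tfh with library 3 highest (10) were the same with DESeq2 size factors and with total counts as the library size. The background moved with total counts. Of all 13970 genes tested, 2165 passed with library 2 highest in the main setting, 2110 with DESeq2 size factors and 1468 with total counts. With library 3 highest the numbers were 2264, 2289 and 3143. In the whole-number counts 6 of 10 Th1 genes that passed were highest in library 2 and 5 of 8 Tfh genes in library 3. Of all 2154 genes that passed there, 664 were highest in library 2 and 788 in library 3. Whether passing or not, 7 of 16 Th1 genes tested there were highest in library 2, beside 3266 of 9991 genes. For Tfh, 10 of 13 tested were highest in library 3, beside 3539 of 9991. The Th1 share was thus lower there than on the estimated counts. Some abundant genes, Ccl5 among them, kept few of their estimated counts in the whole-number counts, and the part of this in the lower share was not tested. Without library 2, 41 of 72 programme genes tested passed (56.9%), beside 30.7% of 13971 genes. Without library 3, 39 of 71 did (54.9%), beside 21.3% of 13964 genes.

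**Figure D4:**
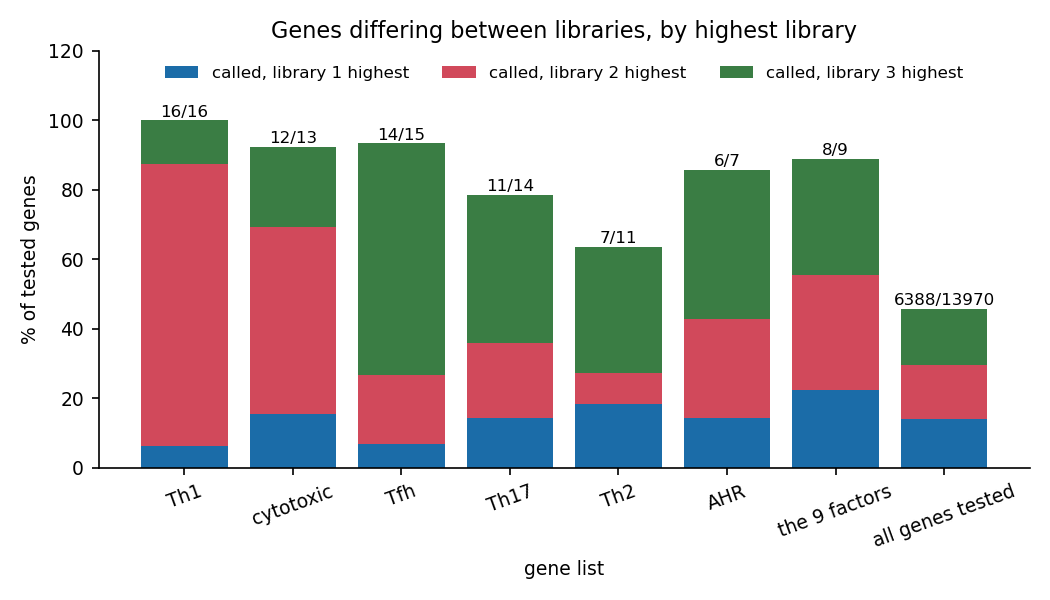
Share of tested genes in each list that passed the between-library test, split by the library in which the gene was highest, with the numbers passed and tested above each bar. On the estimated counts, Th1 genes were highest in library 2 in 13 of 16 cases and Tfh genes in library 3 in 10 of 15, beside all genes tested.

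Most of the 9 factors were read as protein-coding transcripts, with a median of 99.6% of TPM. Only coding transcripts are annotated for Tbx21, Maf and Eomes, so their coding share was 100% by annotation and not by measurement. They are part of that median. The coding share was 98.0% in Gata3, 97.9% in Runx3 and 96.4% in Bcl6, where a retained-intron transcript held the other 3.56%. Tbx21 has 1 annotated transcript. Eomes has 3 coding transcripts, and Eomes-201 carried 49.98%, 89.67% and 85.97% of its TPM, the value in library 1 resting on 3.87 counts. Eomes-203 averaged 12.9% and Eomes-202 11.9%.

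**Figure D5:**
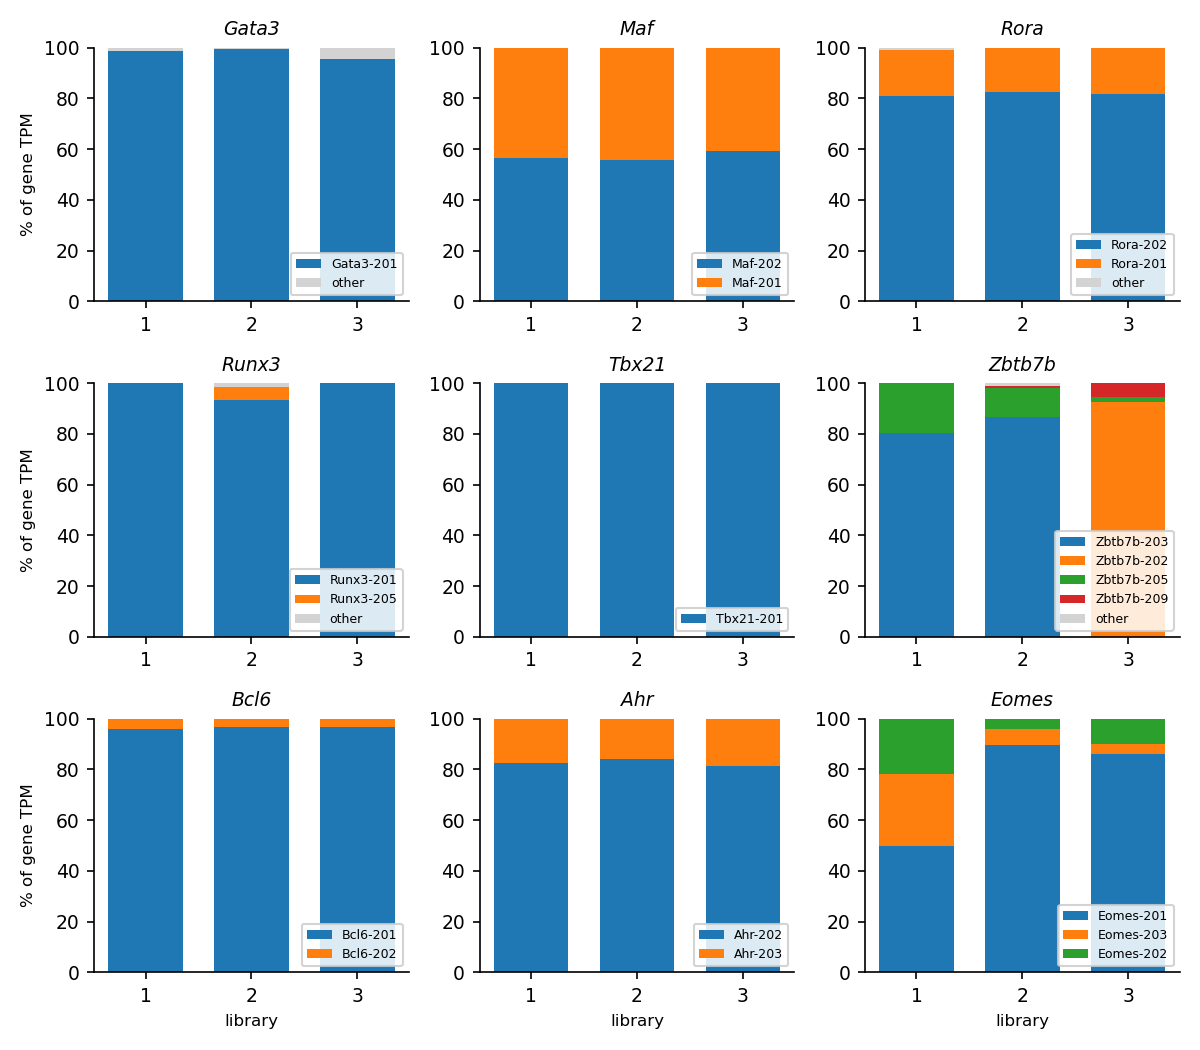
Share of each factor's TPM carried by its transcripts (% of gene TPM) in libraries 1, 2 and 3, with transcripts below 3% in all libraries pooled as other. Zbtb7b changes from Zbtb7b-203 in libraries 1 and 2 to Zbtb7b-202 in library 3, and Eomes-201 is at 49.98% in library 1, where Eomes has 6 counts.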

How the data were processed

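Mouse mm10 libraries were made from poly-A RNA sheared with a Covaris instrument, per the labels. Each library has 2 deposited tables: estimated counts, TPM, posterior mean TPM, the posterior standard deviation of the counts (a signal of uncertainty) and isoform percents per gene and transcript on GENCODE M21, laid out as by RSEM per the file headers, and a whole-number count for each gene of GENCODE M4. The aligner, strand setting and versions were not given in the sources used here.

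Estimated counts were rounded. Library sizes were TMM-scaled (edgeR 4.0.16, R 4.3.3; factors 0.994, 0.976 and 1.03), and genes averaging at least 10 counts were tested with a Poisson chi-square test over libraries (adjusted p under 0.05). edgeR's own test needs 2 groups and was not run. Intervals are 95% exact binomial intervals of a ratio of 2 counts and cover counting error only, and no molecular identifiers were named in the sources used here. TPM differences used log2(TPM + 0.1). The test was checked on simulated counts with known changes, drawn from the same Poisson model that the test assumes. That check cannot show how the test behaves where libraries vary more than counting error. Levels of different genes were compared in TPM, except where counts are named.

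The members and lists were chosen with earlier results of these data known. From each list the text names the 3 genes with the highest mean TPM and fixed signature genes. It also names those that passed by over 2-fold in TPM (at most 4 more). For each factor that passed it names the 2 genes of nearest profile with a mean count of 50 or more. The natural killer cell markers, Cd8b1, Lyz2, Fasl, Il10, Il9, Tiparp, Gpr15, Cyp1b1, Cyp1a2 and Ahrr were named after their values were seen. Some genes that the rule names are not reported here.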

Additional observations from a re-analysis of the deposited data

How the results depend on the processing

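Under the alternative settings, 181 of 202 recomputed values kept their side of the threshold (for the 8 differences between neighbours, also their sign), stayed within 1.5 times for counts of genes, or moved by no more than the spread between libraries. This does not cover which library was highest or the size of a fold: Zbtb7b was highest in library 2 on the whole-number counts, and the Eomes fold ran from 3.30 to 45.0 with 1 library left out and was 85.2 on the whole-number counts. Some of the 202 values could not have changed side. The p-values between neighbours cannot fall below 0.25, so only their signs could change. The coding shares of Tbx21, Maf and Eomes are fixed at 100% by the annotation. With the whole-number counts, which hold about 25.0% as many counts, 2154 genes of 9991 tested (21.6%) differed between libraries, 5 of the 9 factors and 41 programme genes did, and Maf (adjusted p = 0.785), Rora (0.0896) and Runx3 (0.348) no longer passed. Leaving out 1 library in turn gave 2978 to 4765 differing genes, or 21.3% to 33.8% of those tested. Of the 9 factors 7 differed each time (77.8%), and 39 to 55 programme genes did (54.9% to 76.4% of those tested). The lowest counts of genes and programme genes were without library 3. On CPM without length, Gata3 minus Maf turned to -0.39. Tbx21 minus Zbtb7b ran from -0.26 to 0.18 when 1 library was left out, turning positive without library 3. The median coding share was 98.1% with posterior mean TPM and 99.4% to 100% with 1 library left out. At a limit of 5 TPM, 7 factors and 53 programme genes were above it throughout, and without library 1 all 9 factors reached 1 TPM. No paired analysis was possible because there is 1 group. Eomes in library 1 rests on 6 counts, which limits its fold. These are technical libraries of 1 biological replicate, so no value has a check between animals.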

Other observations

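The deposited count tables gave the 9 factors unequal weight. Whole-number counts were 52.0% of the estimated counts for Bcl6, 42.5% for Tbx21, 32.5% for Zbtb7b, 27.7% for Rora, 27.5% for Gata3, 27.3% for Eomes, 24.9% for Ahr, 9.50% for Runx3 and 2.42% for Maf, beside 25.0% over all genes. Over the 3 libraries the share ran from 2.15% to 2.55% for Maf and from 51.3% to 53.1% for Bcl6. The cause was not tested. A comparison of Maf or Runx3 with other factors on the whole-number counts would rank them lower than the estimated counts do. There Maf (130, 138 and 108) lay below Foxp3 (178, 186 and 150) in each library. It also lay below Bcl6 (155, 135 and 194) in libraries 1 and 3, so its place in the high tier is a result of the TPM values.

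Several factors have an overlapping gene that was given counts of its own. Beside Gm33460 at Eomes, Gm15417 at Zbtb7b and Gm48236 at Ahr, Gata3 overlaps 9230102O04Rik on the same strand with 8, 8 and 20 counts and Gm13256 on the opposite strand with 4, 2 and 1. Gm15511, opposite Rora, had 6, 13 and 7. Without a known strand setting, reads of a gene and of its antisense partner cannot be told apart.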
